A study of Homo sapiens and Mus musculus with 24 samples.

Results

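The genes described here are the 4 human fibroblast growth factor (FGF) receptors FGFR1, FGFR2, FGFR3 and FGFR4, the platelet-derived growth factor receptor PDGFRA, and FGFBP1, which encodes a secreted carrier of FGF. They were selected by symbol, and the estimated counts of every transcript bearing a symbol were added in each library. Each symbol had 1 gene identifier, so the set holds 6 of the 58434 gene identifiers and 108 of the 207749 transcripts listed in each table. All 6 genes passed the filter on low counts and were tested among 21079 genes.

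RNA was sequenced from MCF10A, a non-tumorigenic line of human breast epithelium, in 12 libraries that make up 4 groups of 3. KI cells are heterozygous for PIK3CA H1047R, knocked into the gene for the catalytic subunit of PI3K alpha and known to raise the activity of this lipid kinase, and parental cells are labelled wild type. The groups were KI cells given BYL719 (alpelisib, an inhibitor of PI3K alpha) at 1 uM for 4 hours, KI cells given the solvent DMSO for 4 hours, parental cells given the same dose of BYL719 for 4 hours, and parental cells given DMSO for 4 hours. The design asks what the mutation changes and what the inhibitor changes in each line. The lines came from Horizon as an isogenic pair, and each genotype is 1 line, so the genotype and the history of its clone cannot be told apart. The labels do not say whether the libraries of a group came from separate cultures, so the p-values measure the spread between these libraries, which may be technical. The mouse fibroblasts of the series were not used here.

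Totals ran from 120177015 to 162755457 estimated read pairs per library. KI DMSO replicate 2 stood apart from the other 11 libraries: on the second principal component of log2 CPM (counts scaled to a common library total) it lay at 36.3, against -24.8 to 9.43 for the others, so results that rest on it are given with and without it. PIK3CA itself had 69.3 to 72.2 CPM in KI cells with BYL719 and 33.4 to 44.3 CPM in KI cells with DMSO, against 66.7 to 72.1 CPM in parental cells with BYL719 and 55.9 to 59.2 CPM in parental cells with DMSO; the mutant allele was not counted. Basal mammary markers were abundant in every group, with a median summed level of 4547 and 4776 TPM (abundance scaled by transcript length and library) in KI cells with BYL719 and with DMSO, against 5452 and 5455 TPM in parental cells. Of 7 haematopoietic markers, HBB was at 0 in all libraries and CD3E and PTPRC stayed under 0.1 CPM. The monocyte markers CD68 and CD14 had group means of 16.0 to 20.3 and 3.30 to 4.99 CPM, with a summed level of the list of 16.8 to 22.2 TPM. Of 7 endothelial markers the summed level reached at most 1.01 TPM.

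FGF receptors are single-pass tyrosine kinases whose extracellular part is built of immunoglobulin-like loops; ligand and heparan sulphate bring receptors together, and the adaptor FRS2 then couples them to the ERK and PI3K pathways. In FGFR1, FGFR2 and FGFR3, but not in FGFR4, the second part of the third loop comes from either a IIIb or a IIIc exon. Epithelial cells are known for the IIIb forms, of which FGFR2 IIIb binds FGF7 and FGF10 from the neighbouring stroma, and mesenchymal cells for the IIIc forms; the RNA-binding proteins ESRP1 and ESRP2 favour the IIIb exon of FGFR2. PDGFRA is best known from mesenchymal cells, and FGFBP1 releases FGF2 and related ligands from the extracellular matrix.

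The alternative exons of FGFR3 are shown because the reads assigned to its receptor forms below depend on telling these sequences apart. In GRCh38 and the GENCODE 29 transcripts, the FGFR3 IIIb exon spans chr4:1802914-1803064 (151 nt) and the IIIc exon chr4:1803692-1803836 (145 nt), both on the plus strand. Both are exonic coding sequence, written 5′ to 3′ on the gene's strand. Capitals mark bases that differ from, or have no partner in, the other exon in a global alignment.
FGFR3 IIIb: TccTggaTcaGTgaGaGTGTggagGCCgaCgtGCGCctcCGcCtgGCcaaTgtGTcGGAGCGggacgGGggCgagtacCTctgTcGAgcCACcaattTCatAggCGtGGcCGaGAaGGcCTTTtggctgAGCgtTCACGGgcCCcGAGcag
FGFR3 IIIc: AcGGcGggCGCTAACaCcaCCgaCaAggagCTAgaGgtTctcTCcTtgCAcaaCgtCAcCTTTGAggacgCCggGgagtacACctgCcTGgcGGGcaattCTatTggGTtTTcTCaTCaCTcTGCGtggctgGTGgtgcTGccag
The FGFR3 exons shared 77 of 160 aligned columns, an identity of 48.1%.

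The whole genes lie at chr10:121478334-121598458 (FGFR2, minus strand), chr4:1793293-1808872 (FGFR3, plus strand), chr5:177086886-177098144 (FGFR4, plus strand), chr4:54229097-54298247 (PDGFRA, plus strand) and chr4:15935569-15938740 (FGFBP1, minus strand). PDGFRA lies inside a read-through gene, AC058822.1, and FGFR1 overlaps LETM2, so reads that such neighbours share with them were divided by estimate.

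Between KI and parental cells in DMSO, 5 of the 6 genes differed: FGFR2, FGFR3 and PDGFRA were lower in KI cells and FGFR1 and FGFR4 were higher. The FGFR2 deficit was 3.37-fold and that of PDGFRA 4.38-fold, while the other receptors moved by 1.37-fold to 1.52-fold. FGFBP1 did not pass the test. Across all genes tested, 34.2% passed in this comparison, 17% higher and 17.2% lower in KI cells (edgeR quasi-likelihood test, Benjamini-Hochberg adjusted p under 0.05), so a single call among the 6 is common; the median log2 fold change of the 6 genes was -0.31, beside 0.0049 for all genes tested. The CPM of the lines did not overlap for 5 of the 6 genes, beside 45.7% of all genes tested. Without KI DMSO replicate 2 the same split was found, with 2 genes higher and 3 lower, beside 38.9% of all genes called.

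**Figure D1:**
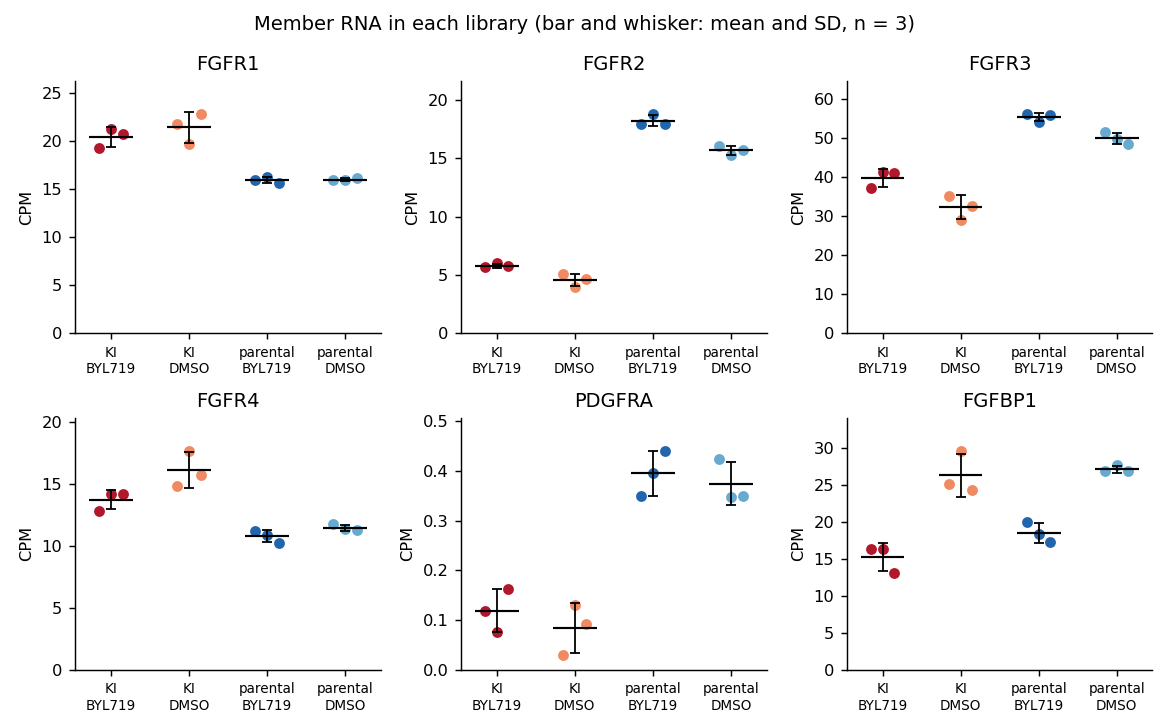
Level of each of the 6 genes in CPM, scaled to the library total, with 1 point per library, a bar for the mean and a whisker for the SD (n = 3). FGFR2 lies between 3.99 and 5.97 CPM in the 6 KI libraries and between 15.3 and 18.8 CPM in the 6 parental libraries, whereas FGFBP1 is separated by treatment within each line.

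FGFR1, the receptor for which FGF2 is a main ligand, had 19.2, 21.2 and 20.7 CPM in KI cells with BYL719 and 21.8, 19.7 and 22.8 CPM in KI cells with DMSO, against 15.9, 16.2 and 15.6 CPM in parental cells with BYL719 and 15.9, 15.9 and 16.1 CPM in parental cells with DMSO. Every KI library was above every parental library, and within each line the treatments overlapped. KI over parental cells gave a log2 fold change of 0.45 (SE 0.0545, edgeR adjusted p = 4.67e-05) in DMSO and 0.38 (SE 0.0546, adjusted p = 0.000217) in BYL719.

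FGFR2, the receptor of FGF7 and FGF10 in its IIIb form, had 5.64, 5.97 and 5.74 CPM in KI cells with BYL719 and 5.04, 3.99 and 4.68 CPM in KI cells with DMSO, against 18.0, 18.8 and 17.9 CPM in parental cells with BYL719 and 16.1, 15.3 and 15.7 CPM in parental cells with DMSO. The highest KI library was far below the lowest parental library, and within each line the BYL719 libraries were all above the DMSO libraries. Of the 6 genes it had the lowest p in the comparison of the lines: the log2 fold change of KI over parental cells was -1.75 (SE 0.0707, edgeR adjusted p = 3.45e-09) in DMSO and -1.63 (SE 0.0699, adjusted p = 5.92e-09) in BYL719. In bulk RNA, fewer cells that express a gene and less of its RNA per cell cannot be told apart. Over the 19 alternative settings and left-out libraries, the DMSO value stayed between -1.81 and -1.68 and passed in all 19.

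FGFR3, a receptor that in epithelia is also expressed in its IIIb form, had 37.0, 41.2 and 41.0 CPM in KI cells with BYL719 and 35.2, 28.9 and 32.6 CPM in KI cells with DMSO, against 56.1, 54.1 and 55.7 CPM in parental cells with BYL719 and 51.4, 49.8 and 48.5 CPM in parental cells with DMSO. No group overlapped another: both KI groups were below both parental groups, and in each line DMSO was below BYL719. KI over parental cells gave a log2 fold change of -0.60 (SE 0.0616, edgeR adjusted p = 1.09e-05) in DMSO and -0.45 (SE 0.0614, adjusted p = 0.000148) in BYL719.

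FGFR4, the family member without IIIb and IIIc forms and a receptor of FGF19 with the co-receptor KLB, had 12.8, 14.2 and 14.2 CPM in KI cells with BYL719 and 14.9, 17.7 and 15.8 CPM in KI cells with DMSO, against 11.2, 10.9 and 10.2 CPM in parental cells with BYL719 and 11.7, 11.4 and 11.3 CPM in parental cells with DMSO. Every KI library was above every parental library, and in each line the BYL719 libraries lay below the DMSO libraries. The log2 fold change of KI over parental cells was 0.52 (SE 0.0744, edgeR adjusted p = 0.00018) in DMSO and 0.38 (SE 0.0747, adjusted p = 0.00263) in BYL719.

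PDGFRA, the receptor for PDGF chains, was close to the limit of detection. It had 16.0, 10.0 and 23.1 estimated counts in KI cells with BYL719 and 4, 17 and 12 in KI cells with DMSO, against 42.1, 53.0 and 59.0 in parental cells with BYL719 and 69, 47 and 43 in parental cells with DMSO. As a level this was 0.119 ± 0.0430 CPM and 0.0837 ± 0.0508 CPM in the KI groups with BYL719 and with DMSO, against 0.396 ± 0.0453 CPM and 0.374 ± 0.0431 CPM in the parental groups (SD, n = 3 each). The lines did not overlap in either treatment, and the treatments overlapped in both lines. The log2 fold change of KI over parental cells was -2.13 (SE 0.377, edgeR adjusted p = 0.00088) in DMSO and -1.70 (SE 0.358, adjusted p = 0.00391) in BYL719, with a standard error several times that of any other receptor. Without KI DMSO replicate 2 the DMSO value was -2.61 (adjusted p = 8.18e-05). Part of these counts was not on coding transcripts. PDGFRA-205, with a retained intron, took 33.8% and 7.24% in the KI groups with BYL719 and with DMSO, against 38.7% and 33.0% in the parental groups. The coding PDGFRA-201 took 56.7% and 40.25%, against 56.3% and 56.3%. All counts of KI DMSO replicate 1 were on PDGFRA-207, also with a retained intron. PDGFRA-208, a nonsense-mediated decay transcript, had counts in KI libraries only.

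FGFBP1, the carrier, had 16.4, 16.3 and 13.1 CPM in KI cells with BYL719 and 25.0, 29.6 and 24.2 CPM in KI cells with DMSO, against 19.9, 18.3 and 17.3 CPM in parental cells with BYL719 and 26.8, 27.7 and 26.8 CPM in parental cells with DMSO. Its 6 BYL719 libraries all lay below its 6 DMSO libraries, whichever the line. The log2 fold change of KI over parental cells was -0.01 in DMSO (SE 0.0991, edgeR adjusted p = 0.934, 95% interval -0.24 to 0.22). In BYL719 it was -0.25 (SE 0.101, adjusted p = 0.1), and there the lines did not overlap. Without KI DMSO replicate 2, which is in neither group, the BYL719 value was -0.26 with an adjusted p of 0.0275.

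Under BYL719, 5 of the 6 genes differed between KI and parental cells in the same directions as in DMSO, with FGFBP1 again outside the call. In this comparison 22.3% of all genes tested passed, 11.4% higher and 10.9% lower, and 46% did not overlap between the lines, against 6 of 6 of these genes without overlap. The median log2 fold change of the 6 genes was -0.35, beside 0.013 for all genes tested. The 5 differences between the lines passed in both treatments under each of the 19 alternatives.

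**Figure D2:**
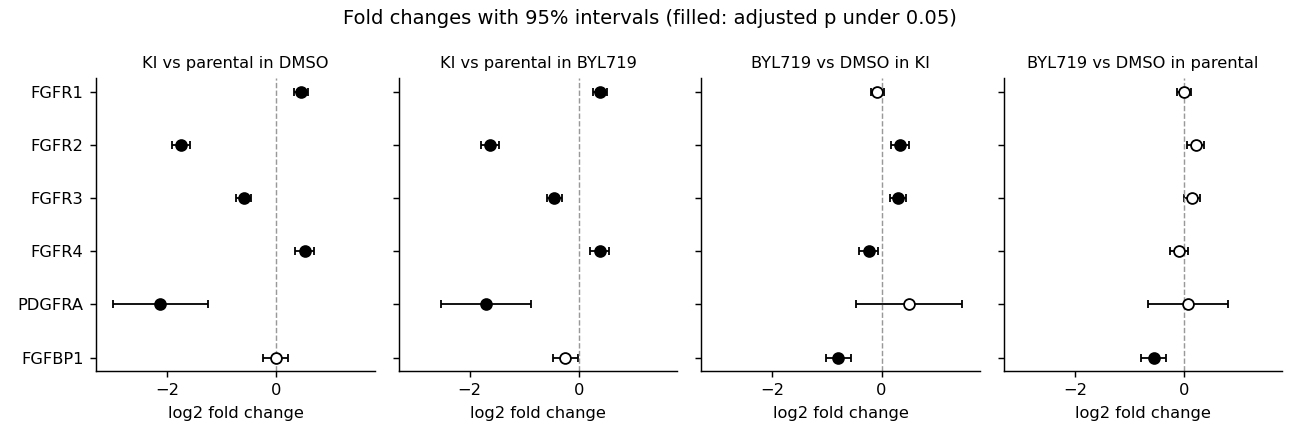
Log2 fold changes of the 6 genes in the 4 comparisons, with 95% intervals. The intervals were built from the edgeR standard error and a t quantile on 8 residual degrees of freedom. The p-values use the moderated degrees of freedom of the fit, so intervals and p-values need not match exactly. Filled points have an adjusted p under 0.05. The 5 receptors keep their direction between KI and parental cells in DMSO and in BYL719, with FGFR2 at -1.75 and -1.63, and FGFBP1 falls with BYL719 in both lines.

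BYL719 was given for 4 hours. In KI cells it raised FGFR2 and FGFR3 and lowered FGFR4 and FGFBP1, 4 of the 6 genes, beside 28.3% of all genes tested, 15.1% higher and 13.2% lower. This comparison shares the KI DMSO libraries with that of the lines in DMSO. FGFR2 was 1.26-fold higher with BYL719 than with DMSO (log2 fold change 0.33, SE 0.071, edgeR adjusted p = 0.00401) and FGFR3 1.23-fold higher (0.30, SE 0.0616, adjusted p = 0.00347). FGFR4 was 1.18-fold lower (log2 fold change -0.24, SE 0.074, adjusted p = 0.0318) and FGFBP1 1.73-fold lower (-0.79, SE 0.101, adjusted p = 0.000117). FGFR1 and PDGFRA had values of -0.08 (adjusted p = 0.332) and 0.50 (adjusted p = 0.407). BYL719 and DMSO did not overlap for 4 of the 6 genes, beside 38.2% of all genes tested.

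The calls in KI cells differed in how firmly they stood. FGFBP1 passed in all 19 alternatives and FGFR2 and FGFR3 in 18, missing when only the KI libraries were fitted (adjusted p = 0.0705 and 0.0565). FGFR4 passed in 15 and missed in that fit (adjusted p = 0.148) and without KI BYL719 replicate 1, 2 or 3. Without KI DMSO replicate 2, FGFR2 stood at 0.24 (adjusted p = 0.00373), FGFR3 at 0.22 (0.00115), FGFR4 at -0.16 (0.033), FGFBP1 at -0.70 (0.000105), and FGFR1 was called at -0.14 (0.0282), so that 5 of 6 genes passed beside 32.4% of all genes.

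In parental cells 1 of the 6 genes passed, beside 1.43% of all genes tested, 0.844% higher and 0.588% lower. FGFBP1 was 1.47-fold lower with BYL719 than with DMSO (log2 fold change -0.55, SE 0.0999, edgeR adjusted p = 0.0171). FGFR2 stood at 0.21 (SE 0.067, adjusted p = 0.175) and FGFR3 at 0.15 (SE 0.0611, adjusted p = 0.356), and for 4 of the 6 genes the treatments did not overlap, beside 31.5% of all genes tested. The FGFBP1 call was lost when any 1 of the 6 parental libraries was left out, with an adjusted p of up to 0.121, and its log2 value then ranged from -0.62 to -0.51. Without KI DMSO replicate 2, which enters here only through the shared estimate of the spread, 9.17% of all genes passed, and FGFR2 (0.21, adjusted p = 0.00937) and FGFR3 (0.14, adjusted p = 0.0367) passed as well as FGFBP1 (-0.56, adjusted p = 0.00143).

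A call in KI cells and none in parental cells does not show that the lines responded differently, and the difference itself was tested. None of the 6 genes passed for the interaction, the BYL719 effect in KI cells minus that in parental cells, in the edgeR fit, by DESeq2 or at an unadjusted p under 0.05, beside 2.87% of all genes tested by edgeR, 2.08% higher and 0.797% lower. The interaction was 0.12 for FGFR2 (95% interval -0.10 to 0.35, adjusted p = 0.561), 0.15 for FGFR3 (-0.05 to 0.35, adjusted p = 0.406) and -0.24 for FGFBP1 (-0.56 to 0.09, adjusted p = 0.422). FGFR1 stood at -0.07 (-0.25 to 0.11), FGFR4 at -0.14 (-0.38 to 0.10) and PDGFRA at 0.43 (-0.78 to 1.64). The PDGFRA interval was the widest of the 6, so a difference in its response within those limits was not resolved.

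Levels of different genes were compared per transcript length, in TPM. In KI cells with BYL719 the order was FGFR3 (21.6 TPM), FGFBP1 (17.5), FGFR1 (8.76), FGFR4 (8.74), FGFR2 (2.53) and PDGFRA (0.0671), and in KI cells with DMSO it was FGFBP1 (29.4 TPM), FGFR3 (15.4), FGFR4 (9.29), FGFR1 (8.79), FGFR2 (2.11) and PDGFRA (0.0347). In parental cells with BYL719 it was FGFR3 (30.9 TPM), FGFBP1 (21.1), FGFR2 (8.25), FGFR1 (6.56), FGFR4 (6.53) and PDGFRA (0.287), and in parental cells with DMSO FGFBP1 (30.7 TPM), FGFR3 (26.8), FGFR4 (7.18), FGFR2 (6.83), FGFR1 (5.85) and PDGFRA (0.341). FGFR3 was thus the most abundant receptor in every group, and FGFR2 was the least abundant FGF receptor in both KI groups but not in the parental groups. FGFR1 and FGFR4 overlapped in both KI groups and in parental cells with BYL719, as did FGFR4 and FGFR2 in parental cells with DMSO and FGFR3 and FGFBP1 in KI cells with BYL719, so those neighbours in the order did not differ beyond their spread.

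The 4 FGF receptors together made 41.6 ± 3.79 TPM in KI cells with BYL719 and 35.6 ± 4.52 TPM in KI cells with DMSO, against 52.3 ± 1.42 TPM in parental cells with BYL719 and 46.7 ± 0.375 TPM in parental cells with DMSO (SD, n = 3 each). FGFR2 made 6.10% and 6.00% of that sum in the KI groups with BYL719 and with DMSO, against 15.8% and 14.6% in the parental groups. FGFR1 made 21.2% and 24.7% in the KI groups, against 12.5% and 12.5% in the parental groups. FGFR3 had the largest share throughout, with 51.7% and 43.1% in the KI groups against 59.2% and 57.4% in the parental groups, and FGFR4 made up the rest.

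**Figure D3:**
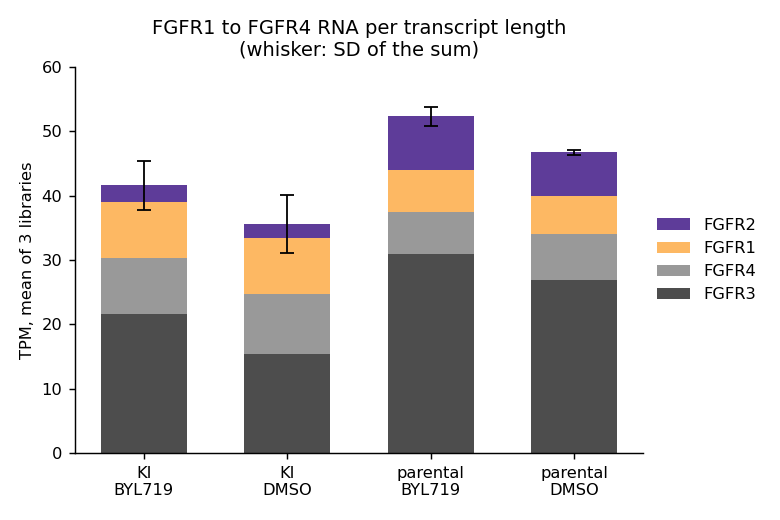
Stacked mean levels of FGFR1 to FGFR4 per transcript length (TPM, n = 3 libraries per group), with whiskers for the SD of the sum. FGFR3 is the largest block in all 4 groups, and the FGFR2 block is 2.53 and 2.11 TPM in the KI groups with BYL719 and with DMSO, against 8.25 and 6.83 TPM in the parental groups.

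The forms of the receptors were read from the estimated counts of their transcripts, classed by the exons that GENCODE 29 gives them. Of the FGFR2 counts, transcripts with the IIIb exon took 42.8%, 35.5% and 41.1% in KI cells with BYL719 and 37.5%, 31.0% and 44.2% in KI cells with DMSO, against 42.9%, 43.9% and 45.8% in parental cells with BYL719 and 42.3%, 45.1% and 43.7% in parental cells with DMSO. The parental libraries lay close together and the KI libraries were spread more widely and reached lower. The KI cells were lower by 5.25 percentage points on average (exact permutation test over 400 arrangements, two-sided p = 0.035), and the adjusted p over the 12 share tests made was 0.14. Without KI DMSO replicate 2 the difference was -3.71 points (adjusted p = 0.165). With KI DMSO replicate 3 left out it was -6.36 points and passed (adjusted p = 0.03). The smallest permutation p, 0.005, gave an adjusted p of 0.06 when 1 share alone reached it. A pass therefore needed more than 1 share with a low p, so passing or missing says little about a single share.

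Transcripts with the FGFR2 IIIc exon took 40.6%, 53.6% and 48.4% of the counts in KI cells with BYL719 and 57.5%, 49.9% and 49.7% in KI cells with DMSO, against 47.7%, 34.5% and 34.7% in parental cells with BYL719 and 47.9%, 36.5% and 34.5% in parental cells with DMSO. The lines overlapped under BYL719 and did not overlap in DMSO. The difference of 10.7 percentage points had an exact permutation p of 0.02 and an adjusted p of 0.12, and it was 10.7 points without KI DMSO replicate 2 as well (adjusted p = 0.12). Both forms were low in KI cells as levels: IIIb transcripts had 2.30 ± 0.155 and 1.73 ± 0.440 CPM in the KI groups with BYL719 and with DMSO, against 8.06 ± 0.309 and 6.85 ± 0.0492 CPM in the parental groups. IIIc transcripts had 2.76 ± 0.457 and 2.41 ± 0.460 CPM in the KI groups, against 7.09 ± 1.283 and 6.23 ± 1.276 CPM in the parental groups (SD, n = 3 each). FGFR2 transcripts with neither exon took 10.5 ± 5.69% and 9.67 ± 7.67% of the counts in the KI groups with BYL719 and with DMSO. In the parental groups they took 16.8 ± 6.47% and 16.6 ± 6.14%, a share that was not tested. The higher IIIc share in KI cells thus stood beside lower mean shares of both the IIIb transcripts and those with neither exon.

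Only FGFR2-224, a IIIc form without the exon of the first loop, and FGFR2-215, a IIIb form, reached 10% of the FGFR2 counts as the mean of a group. FGFR2-224 took 32.1%, 27.8% and 37.2% in KI cells with BYL719 and 50.3%, 49.0% and 42.1% in KI cells with DMSO, against 37.8%, 28.1% and 27.3% in parental cells with BYL719 and 39.7%, 29.6% and 27.2% in parental cells with DMSO. The KI DMSO libraries were above the other 9. Averaged over treatments the KI cells were higher by 8.11 points (exact permutation p = 0.07, adjusted p = 0.168), and averaged over lines the BYL719 minus DMSO difference was -7.93 points (p = 0.06, adjusted p = 0.168). FGFR2-224 also ends 1523 nt beyond FGFR2-215, so a change of exon and a change of 3′ end cannot be told apart from these estimates. None of the 8 FGFR2 transcripts tested for relative use with edgeR passed in any comparison, beside 1.02% of all transcripts called between KI and parental cells in DMSO, 0.548% between them in BYL719, 0.963% and 0.44% between treatments in KI and parental cells, and 0.754% for the interaction. At an unadjusted p under 0.05 there were 1, 0, 3, 0 and 2 FGFR2 transcripts in these comparisons.

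**Figure D4:**
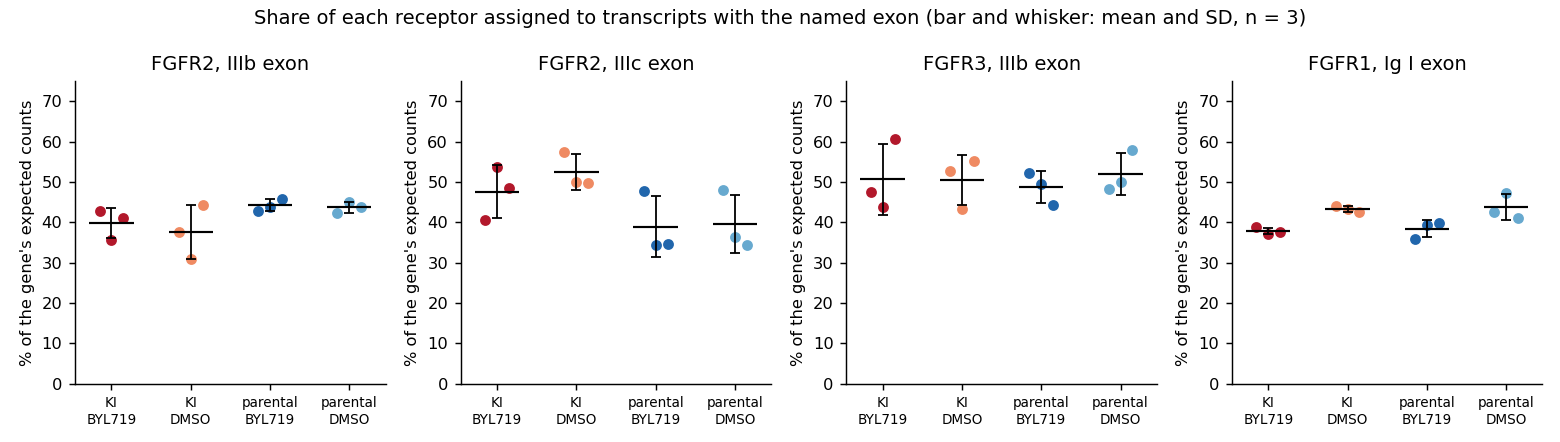
Share of each receptor's estimated counts assigned to transcripts that carry the named exon, with 1 point per library, a bar for the mean and a whisker for the SD (n = 3). The FGFR2 IIIc share averages 47.5% and 52.4% in the KI groups against 38.9% and 39.6% in the parental groups, and the FGFR1 share with the first-loop exon is at most 39.9% in the 6 BYL719 libraries and at least 41.1% in the 6 DMSO libraries.

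FGFR1 was almost wholly of the IIIc form. Transcripts with the IIIc exon averaged 92.2 ± 1.47% of its counts in KI cells with BYL719 and 89.1 ± 5.24% in KI cells with DMSO, against 91.3 ± 2.82% in parental cells with BYL719 and 92.6 ± 1.285% in parental cells with DMSO (SD, n = 3 each). Those with the IIIb exon stayed between 0.706% and 5.37% in all 12 libraries. The exon of the first immunoglobulin-like loop, which the long receptor form keeps and the short form with higher affinity for FGF lacks, varied with treatment. Transcripts with it took 38.7%, 37.2% and 37.6% of the FGFR1 counts in KI cells with BYL719, against 44.1%, 43.2% and 42.5% in KI cells with DMSO. They took 35.9%, 39.2% and 39.9% in parental cells with BYL719, against 42.6%, 47.3% and 41.1% in parental cells with DMSO. BYL719 was below DMSO in every library of both lines. The mean difference was -5.40 percentage points with an exact permutation p of 0.005, the smallest that 400 arrangements allow, and an adjusted p of 0.06 over the 12 tests, so it did not pass. No share could pass alone at that number of tests, so the miss decides nothing. The difference was -5.60 points and passed without KI DMSO replicate 3 (adjusted p = 0.03). There the FGFR2 IIIb share between lines had the same adjusted p, and a pass again needed more than 1 share with a low p. The FGFR1 first-loop share was chosen for testing after its values were seen. The long forms FGFR1-206 and FGFR1-238 end 1594 and 1499 nt beyond the short forms FGFR1-201 and FGFR1-204, so here too the exon and the 3′ end cannot be told apart.

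Of the 15 FGFR1 transcripts tested for relative use, FGFR1-242 alone passed, between KI and parental cells in DMSO (edgeR adjusted p = 0.000526) and between BYL719 and DMSO in KI cells (adjusted p = 0.000323, beside 0.963% of all transcripts). It rests on few libraries: its estimated counts were 263 in KI DMSO replicate 2, 58.4 in KI DMSO replicate 3 and 30.5 in parental BYL719 replicate 1, and 0 in the other 9. With KI DMSO replicate 2 left out, no FGFR1 transcript passed in either of these comparisons, and the difference between the lines was also lost without parental DMSO replicate 1 or 2. FGFR1-201, the leading FGFR1 transcript, took 22.5% to 39.3% of the counts in KI libraries, against 21.1% to 34.1% in parental libraries, with a KI minus parental difference of 5.12 points (exact permutation p = 0.15, adjusted p = 0.3).

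The IIIb share of FGFR3 showed no order by line or treatment. IIIb transcripts averaged 50.6 ± 8.80% of its counts in KI cells with BYL719 and 50.4 ± 6.19% in KI cells with DMSO, against 48.7 ± 4.04% in parental cells with BYL719 and 52.1 ± 5.18% in parental cells with DMSO (SD, n = 3 each). The KI minus parental difference was 0.11 points (exact permutation p = 0.975). IIIc transcripts of FGFR3 averaged 21.5 ± 10.8% and 28.0 ± 3.31% in the KI groups with BYL719 and with DMSO. In the parental groups they averaged 23.1 ± 1.66% and 20.9 ± 4.56%, a share that was not tested. These estimates can swing between libraries. The IIIc transcript FGFR3-205 had 1083 and 947 estimated counts in KI BYL719 replicates 1 and 2 and 0 in replicate 3. Of 9 FGFR3 transcripts tested, FGFR3-203 passed for relative use between BYL719 and DMSO in KI cells (edgeR adjusted p = 0.0269); its estimated counts were 0 in all 3 KI BYL719 libraries, against 178, 0 and 337 in KI DMSO libraries. It also had 0, 223 and 0 in parental cells with BYL719 and 0, 0 and 358 in parental cells with DMSO, so within 3 of the 4 groups some libraries had counts and others had 0. This call was lost when any library was left out other than KI DMSO replicate 2 or parental BYL719 replicate 2. None of 9 FGFR4 and 2 PDGFRA transcripts passed in any comparison by edgeR, with 0 at an unadjusted p under 0.05, and FGFBP1 has 1 transcript.

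ESRP1 and ESRP2, which favour the IIIb exon of FGFR2, were both lower in KI cells. ESRP1 had 136, 131 and 131 CPM in KI cells with BYL719 and 115, 97.0 and 115 CPM in KI cells with DMSO, against 219, 222 and 224 CPM in parental cells with BYL719 and 204, 209 and 210.4 CPM in parental cells with DMSO. The lines were far apart in both treatments, with a log2 fold change of KI over parental cells of -0.90 (SE 0.0551, edgeR adjusted p = 1.18e-07) in DMSO and -0.71 (SE 0.0549, adjusted p = 1.03e-06) in BYL719. For BYL719 over DMSO in KI cells it was 0.28 (SE 0.0548, adjusted p = 0.00264). ESRP2 averaged 49.2 ± 0.355 and 56.0 ± 7.33 CPM in the KI groups with BYL719 and with DMSO, against 74.6 ± 1.61 and 79.6 ± 2.79 CPM in the parental groups (SD, n = 3 each). Its log2 fold change of KI over parental cells was -0.48 (SE 0.0679, adjusted p = 0.000156) in DMSO and -0.57 (SE 0.0681, adjusted p = 4.63e-05) in BYL719. In KI cells ESRP2 stood at -0.19 with BYL719 (adjusted p = 0.0558), and at -0.29 (adjusted p = 1.05e-05) without KI DMSO replicate 2. It passed in 8 of 19 alternatives. ESRP2 overlaps NFATC3.

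Of 15 splicing regulators listed for these exons, 2 were higher and 4 lower in KI than in parental cells in DMSO. This is 40% beside 34.2% of all genes, a share near the background. In BYL719 1 was higher and 4 lower, 33.3% beside 22.3% of all genes. Without KI DMSO replicate 2 the counts were 3 and 5 in DMSO, beside 38.9% of all genes, and 1 and 5 in BYL719, beside 34.6%. Beside the ESRP genes, MBNL2, a regulator of alternative exons, had a log2 fold change of KI over parental cells of -0.82 (SE 0.0742, edgeR adjusted p = 3.74e-06) in DMSO. BYL719 raised it by 0.82 in KI cells (SE 0.0743, adjusted p = 8.86e-06). In KI cells BYL719 raised 4 of the 15 and lowered 3, 46.7% beside 28.3% of all genes, against 5 and 5 without KI DMSO replicate 2, beside 32.4%. In parental cells none passed by edgeR, beside 1.43% of all genes (2 at an unadjusted p under 0.05, and 1 by DESeq2). Without that library 1 was higher and 1 lower there, beside 9.17% of all genes.

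Among the 22 FGF family genes of the ligand list, 10 passed the filter on low counts. In DMSO, 3 were higher in KI than in parental cells and 3 lower, 60% beside 34.2% of all genes (3 and 2 without KI DMSO replicate 2, beside 38.9%). Under BYL719 4 were higher and 1 lower, 50% beside 22.3% of all genes (4 and 2 without that library, beside 34.6%). The median log2 fold change of the 10 was -0.19 in DMSO and 0.35 in BYL719, beside 0.0049 and 0.013 for all genes tested. FGF2, a ligand held by heparan sulphate and bound by the IIIc forms and by FGFR1 IIIb, had 10.4, 9.90 and 10.9 CPM in KI cells with BYL719 and 14.3, 13.3 and 14.4 CPM in KI cells with DMSO, against 2.20, 2.08 and 2.41 CPM in parental cells with BYL719 and 3.16, 3.11 and 2.73 CPM in parental cells with DMSO. The KI libraries were all above the parental libraries and DMSO above BYL719 in each line. The log2 fold change of KI over parental cells was 2.25 in DMSO (SE 0.0753, edgeR adjusted p = 6.17e-10) and 2.25 in BYL719 (SE 0.0768, adjusted p = 7.48e-10). With BYL719 over DMSO, FGF2 had a log2 fold change of -0.43 in KI cells (SE 0.0704, adjusted p = 0.000714) and -0.43 in parental cells (SE 0.0776, adjusted p = 0.0171), the second of which was lost on leaving out replicate 1 or replicate 2 of either parental group and with effective-length offsets.

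FGF5, a ligand of IIIc forms, was higher in KI cells by 1.01 on the log2 scale in DMSO (SE 0.161, edgeR adjusted p = 0.000405) and by 0.89 in BYL719 (SE 0.167, adjusted p = 0.00178). FGF1, which binds all FGF receptors, had 1.67 ± 0.412 and 1.83 ± 0.131 CPM in the KI groups with BYL719 and with DMSO, against 4.14 ± 0.222 and 3.87 ± 0.154 CPM in the parental groups (SD, n = 3 each). Its log2 fold change of KI over parental cells was -1.05 (SE 0.147, adjusted p = 0.000155) in DMSO and -1.282 (SE 0.148, adjusted p = 3.73e-05) in BYL719. FGF7, a ligand of FGFR2 IIIb, had 1.24 ± 0.184 CPM in KI cells with BYL719, against 0.858 ± 0.0466 CPM in KI cells with DMSO (SD, n = 3 each), a log2 fold change of 0.52 (SE 0.124, adjusted p = 0.00777) that was lost when only the KI libraries were fitted. FGF10, the other main ligand of that form, was among the 12 genes of the list that did not pass the filter. The list also holds FGF13 and FGF12, intracellular family members that do not signal through these receptors. FGF13 was higher in KI cells in DMSO by 0.48 (SE 0.125, adjusted p = 0.01). Lower there beside FGF1 were FGF22 at -0.66 (SE 0.192, adjusted p = 0.0182) and FGF12 at -1.25 (SE 0.401, adjusted p = 0.0291). These 2 lost the call when KI DMSO replicate 3 or parental DMSO replicate 3 was left out. The FGF12 call was also lost without KI DMSO replicate 2 or parental DMSO replicate 2, by DESeq2, with no filter on low counts, with the replicate block, and with effective-length offsets, where it stood at -0.73.

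**Figure D5:**
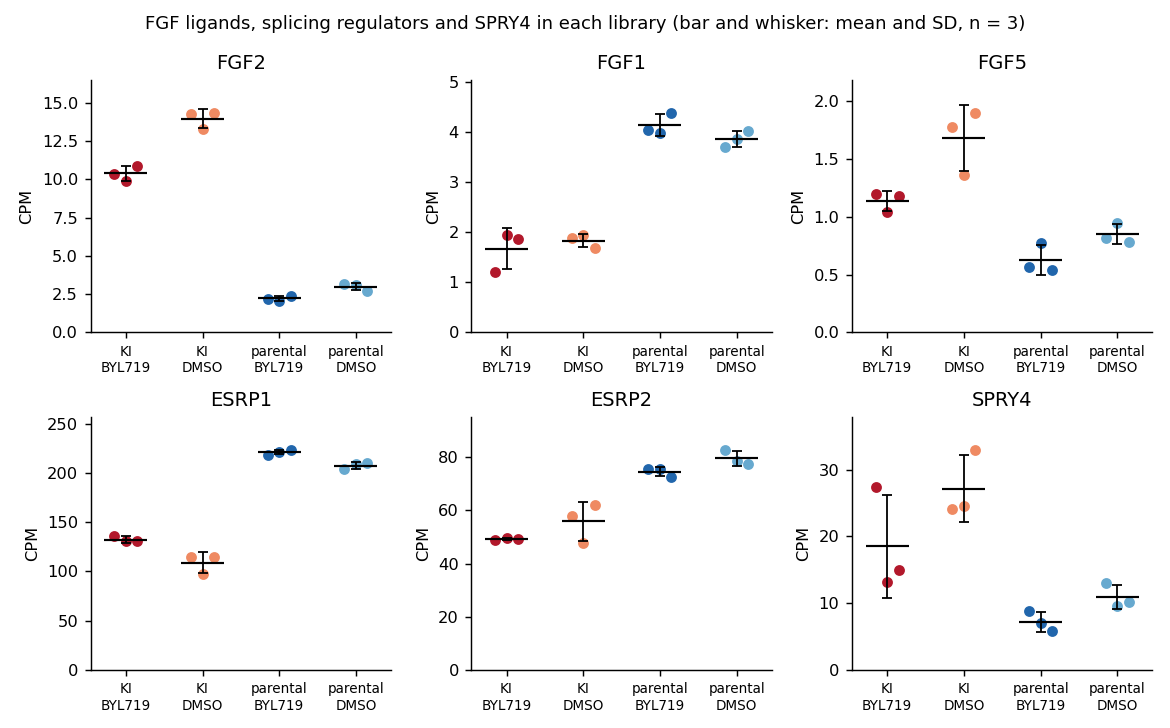
Levels of 3 FGF ligands, 2 splicing regulators and the feedback gene SPRY4 in CPM, scaled to the library total, with 1 point per library, a bar for the mean and a whisker for the SD (n = 3). FGF2 lies between 9.90 and 14.4 CPM in the KI libraries and between 2.08 and 3.16 CPM in the parental libraries, while FGF1, ESRP1 and ESRP2 are lower in KI libraries.

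Of the 18 co-receptors and carriers, which include the heparan sulphate proteoglycans that FGF receptors need, 16 were tested. In DMSO 6 were higher and 2 lower in KI cells, 50% beside 34.2% of all genes (7 and 3 without KI DMSO replicate 2, beside 38.9%). Under BYL719 6 were higher and 4 lower, 62.5% beside 22.3% of all genes (7 and 5 without that library, beside 34.6%). SDC3, a syndecan, had 173 ± 6.77 and 178 ± 21.4 CPM in the KI groups with BYL719 and with DMSO, against 89.0 ± 2.40 and 92.7 ± 3.72 CPM in the parental groups (SD, n = 3 each). Its log2 fold change of KI over parental cells was 0.97 (SE 0.0684, edgeR adjusted p = 4.37e-07) in DMSO. GPC6, a glypican, stood at 1.00 (SE 0.0673, adjusted p = 2.75e-07) in DMSO, and ANOS1, a matrix protein that modulates FGFR1 signalling, stood at 2.43 (SE 0.311, adjusted p = 7.41e-05) from parental levels near 0.1 CPM. GPC3, another glypican, was lower at -1.59 (SE 0.387, adjusted p = 0.00714).

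GPC6 also answered to BYL719 in KI cells. It had 22.0, 23.9 and 23.0 CPM in KI cells with BYL719, against 14.5, 11.8 and 13.6 CPM in KI cells with DMSO, a log2 fold change of 0.78 (SE 0.0656, edgeR adjusted p = 5.01e-06). In parental cells it had 7.57, 7.33 and 7.84 CPM with BYL719, against 6.88, 6.61 and 6.84 CPM with DMSO. The treatments did not overlap in either line, and the interaction was 0.63 (SE 0.0941, adjusted p = 0.0042). In KI cells BYL719 raised 4 of the 16 genes and lowered 1, 31.2% beside 28.3% of all genes, a share near the background (3 and 2 without KI DMSO replicate 2, beside 32.4%). In parental cells none passed by edgeR, beside 1.43% of all genes (4 at an unadjusted p under 0.05, and 1 by DESeq2). Without that library 1 was higher and 1 lower there, beside 9.17% of all genes.

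All 14 receptor-proximal adaptors listed were tested, and 4 were higher and 4 lower in KI than in parental cells in DMSO, 57.1% beside 34.2% of all genes. Without KI DMSO replicate 2 the counts were 5 and 4, beside 38.9% of all genes. SHC1, a docking protein upstream of RAS, was higher by 0.33 (SE 0.0631, edgeR adjusted p = 0.00162) and GRB2, which links receptors to the RAS activator SOS, by 0.24 (SE 0.0393, adjusted p = 0.000543). GAB1, a docking protein that binds PI3K, stood at -0.53 (SE 0.12, adjusted p = 0.00448) and CBLB, a ubiquitin ligase that acts on receptors, at -0.49 (SE 0.121, adjusted p = 0.0074). In KI cells BYL719 raised 6 and lowered 2, 57.1% beside 28.3% of all genes (6 and 6 without KI DMSO replicate 2, beside 32.4%). It raised CBLB by 1.29 (SE 0.122, adjusted p = 1.23e-05), SOS2 by 0.72 (SE 0.0913, adjusted p = 0.00012) and GAB1 by 0.66 (SE 0.12, adjusted p = 0.00149). None passed in parental cells by edgeR, beside 1.43% of all genes (2 at an unadjusted p under 0.05, and 1 by DESeq2), against 3 higher without that library, beside 9.17%. Under BYL719, 3 adaptors were higher in KI than in parental cells and none lower, 21.4% beside 22.3% of all genes, a share near the background. Without that library 6 were higher and 2 lower, beside 34.6% of all genes.

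Of 15 feedback inhibitors and ETS factors that ERK induces downstream of FGF receptors, 9 passed in DMSO, beside 34.2% of all genes. Of these, 7 were higher and 2 lower in KI cells in DMSO (5 and 2 without KI DMSO replicate 2, beside 38.9% of all genes), with a median log2 fold change of 0.34 over the 15. Under BYL719 8 of the 15 were higher and 1 lower, 60% beside 22.3% of all genes (7 and 1 without that library, beside 34.6%), with a median of 0.41. SPRY4, a Sprouty inhibitor, had 27.4, 13.2 and 14.9 CPM in KI cells with BYL719 and 24.1, 24.5 and 33.0 CPM in KI cells with DMSO, against 8.75, 7.04 and 5.79 CPM in parental cells with BYL719 and 13.0, 9.64 and 10.2 CPM in parental cells with DMSO. Every KI library was above every parental library, and KI BYL719 replicate 1 stood well above the other 2 of its group. That library was the highest of its group for 13 of the 15 feedback genes, among them DUSP6 with 34.9, 18.4 and 19.1 CPM and DUSP4 with 82.5, 47.7 and 53.8 CPM. Without it, a choice made after its values were seen, 9 genes were higher and 2 lower in KI cells in DMSO. Of all 21505 genes then tested, 7446 passed in that comparison. In BYL719 7 were higher and 2 lower, with a median of 0.24, beside 4329 of the 21505 genes. For SPRY4, with all libraries kept, the log2 fold change of KI over parental cells under BYL719 was 1.39 (SE 0.258, edgeR adjusted p = 0.00174). The phosphatase DUSP4 had a log2 fold change of KI over parental cells of 0.99 (SE 0.18, adjusted p = 0.00103) in DMSO, the inhibitor SPRED3 of 1.279 (SE 0.141, adjusted p = 2.15e-05), and the ETS factor ETV1 of 1.04 under BYL719 (SE 0.141, adjusted p = 0.000143). ETV4, another ETS factor, stood at -0.34 in DMSO (SE 0.0678, adjusted p = 0.00208) and IL17RD, a membrane inhibitor of FGF signalling, at -0.35 (SE 0.0901, adjusted p = 0.00936), which was lost when only the DMSO libraries were fitted.

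With BYL719, 5 of the 15 feedback genes passed in KI cells, 33.3% beside 28.3% of all genes, a share near the background. There were 2 that rose and 3 that fell, in number also without KI DMSO replicate 2. SPRY2 rose by 0.64 (SE 0.0633, edgeR adjusted p = 1.73e-05) and IL17RD by 0.46 (SE 0.0901, adjusted p = 0.00235). DUSP5 had a log2 fold change of -0.90 (SE 0.194, adjusted p = 0.00444), SPRED3 of -0.64 (SE 0.138, adjusted p = 0.00448) and DUSP7 of -0.38 (SE 0.084, adjusted p = 0.00532), the last of which was lost when only the KI libraries were fitted. In parental cells SPRY2 was the 1 gene of the 15 that passed, 6.67% beside 1.43% of all genes, at 0.39 (SE 0.0633, adjusted p = 0.0112). It was lost on leaving out any of the 3 parental DMSO libraries, or replicate 1 or 3 of the parental BYL719 group. Without KI BYL719 replicate 1, left out after its values were seen, 2 rose and 8 fell in KI cells, beside 5752 of all 21505 genes called. DUSP4, DUSP6, ETV5, SPRED1 and SPRY4 were added to those that fell, and the median over the 15 genes was -0.39. In parental cells 1 then rose and 2 fell, beside 419 of the 21505 genes. With all libraries the median was -0.11 in KI cells and -0.24 in parental cells, beside 0.019 and 0.0057 for all genes tested.

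The relatives of PDGFRA were measured in the same way, and 7 of 9 PDGF ligands and class III receptors were tested. In DMSO 2 were higher and 2 lower in KI than in parental cells, 57.1% beside 34.2% of all genes (3 and 3 without KI DMSO replicate 2, beside 38.9%). In BYL719 2 were higher and 3 lower, 71.4% beside 22.3% of all genes, and the counts were the same without that library, beside 34.6%. BYL719 raised 1 and lowered 2 in KI cells, 42.9% beside 28.3% of all genes (1 and 1 without that library, beside 32.4%). In parental cells none of the 7 passed by edgeR, beside 1.43% of all genes, by DESeq2 or at an unadjusted p under 0.05. PDGFRL, a secreted PDGFRA-like protein, had 5.15 ± 0.176 and 2.39 ± 0.265 CPM in the KI groups with BYL719 and with DMSO, against 0.944 ± 0.0867 and 0.806 ± 0.0885 CPM in the parental groups (SD, n = 3 each). Its log2 fold change of KI over parental cells was 1.60 (SE 0.119, edgeR adjusted p = 6.78e-07) in DMSO and 2.47 (SE 0.118, adjusted p = 1.63e-08) in BYL719, opposite in direction to PDGFRA. PDGFC, a ligand of PDGFRA, stood at 0.26 in DMSO (SE 0.0471, adjusted p = 0.000916), PDGFB, which binds both PDGF receptors, at -1.76 (SE 0.34, adjusted p = 0.00164) and CSF1R, the receptor for colony-stimulating factor 1, at -0.75 (SE 0.078, adjusted p = 1.31e-05).

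Epithelial markers differed with the line, and for fibroblast markers the share called between the lines was near the background in DMSO only. Of 10 epithelial markers, 7 were lower and 1 higher in KI cells in both treatments, with median log2 fold changes of -0.88 in DMSO and -0.94 in BYL719. This is 80%, beside 34.2% of all genes in DMSO and 22.3% in BYL719. The counts were the same without KI DMSO replicate 2, beside 38.9% and 34.6% of all genes. Their summed level was 965 to 1001 TPM and 917 to 926 TPM in KI libraries with BYL719 and with DMSO, against 1066 to 1137 TPM and 1086 to 1100.4 TPM in parental libraries. Of 12 fibroblast markers 11 were tested, and 3 were higher and 1 lower in DMSO (4 and 1 without that library). This is 36.4% of the 11, beside 34.2% of all genes. Under BYL719, 4 were higher and 1 lower in KI cells, 45.5% beside 22.3% of all genes (4 and 1 without that library, beside 34.6%). In KI cells BYL719 raised 6 of these markers and lowered 0, 54.5% beside 28.3% of all genes (5 and 0 without that library, beside 32.4%). Of the 6, COL1A2 rested on 1 library, with 0.154, 0.0686 and 4.33 CPM in KI cells with BYL719. Its call was lost in 15 alternatives. LUM was near the floor, with 0.134 and 0.0303 CPM on average in KI cells with BYL719 and with DMSO. Their summed level was 188 to 213 TPM and 96.5 to 119 TPM in KI libraries with BYL719 and with DMSO, against 96.4 to 101 TPM and 83.0 to 85.9 TPM in parental libraries, and TCF21 stayed under 0.1 CPM throughout. The order of these sums turned without DCN, a matrix proteoglycan. They were then 80.6 to 84.6 TPM and 56.9 to 69.7 TPM in KI libraries with BYL719 and with DMSO, against 88.9 to 92.4 TPM and 79.1 to 82.7 TPM in parental libraries. FBLN1, a matrix protein, was lower in KI cells in DMSO at -1.56. Of 10 basal mammary markers, 8 were lower and 1 higher in KI cells in DMSO, 90% beside 34.2% of all genes. The counts were the same without KI DMSO replicate 2, beside 38.9% of all genes. Of 6 endothelial markers tested 2 were higher, and of 3 haematopoietic markers tested 1 was higher. Each is 33.3% of its list, beside 34.2% of all genes, a share near the background. The part of these markers in the receptor differences was not tested.

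For 5 of the 6 genes, FGFR4 left out, the genes most like them across the 12 libraries were found by the root-mean-square difference of centred log2 CPM. For FGFR2 these were NCKAP5 (0.0872), HR (0.0985) and GNAL (0.113). For FGFR1 they were CBS (0.0323), CLMP (0.0492) and PGD (0.0525), and for FGFR3 PRKCH (0.0497), SPATS2L (0.0525) and PRSS16 (0.0537). FGFBP1 was nearest to ELOVL3 (0.108), CDC42EP1 (0.109) and IDI1 (0.135). PDGFRA had no close match, the nearest being HBA1 (0.400), ARHGEF25 (0.420) and ZNF345 (0.422), and counts of HBA1 are uncertain because it shares nearly all of its sequence with HBA2. IDI1 was split by treatment as FGFBP1 was, with 168 and 280.0 CPM in the KI groups with BYL719 and with DMSO, against 190.2 and 252 CPM in the parental groups.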

How the data were processed

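RNA of 12 MCF10A libraries was sequenced as paired reads of 150 nt, per the labels' protocols. Per the submitters' processing notes, the tools were Trim Galore 0.6.1, cutadapt, Salmon 1.2.1 and DESeq2 1.28.1, with GRCh38; RNA selection, strandedness and annotation release were not given in the sources used here. Deposited by the authors were expected counts (estimated read pairs, not whole numbers) and TPM per transcript. From these, counts were summed to genes, rounded, and fitted over all 12 libraries with edgeR 4.0.16 (filterByExpr, TMM, robust quasi-likelihood, 8 residual degrees of freedom; R 4.3.3), two-sided, with Benjamini-Hochberg adjustment over all 21079 genes. CPM use library totals. Relative use of 85989 transcripts was tested with edgeR's diffSpliceDGE, and shares with exact permutation within strata. The scripts were tested on simulated data. Reads shared by transcripts were divided by Salmon's estimate, whose uncertainty was not used in these tests. The transcripts matched GENCODE 29 in 43 of 43 (FGFR1), 27 of 27 (FGFR2), 11 of 11 (FGFR3), 15 of 16 (FGFR4), 9 of 10 (PDGFRA) and 1 of 1 (FGFBP1) cases. Replicates differed by a chi-square per degree of freedom of 4.59 to 167, so no library was a copy.

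The 6 genes, the 6 pathway lists and the 5 marker lists were chosen with earlier results of these data known. Named in the text are the 6 genes, their transcripts with at least 10% of the gene's counts in a group, ESRP1, ESRP2, up to 3 called genes per list, direction and comparison, and the 3 genes most like FGFR1, FGFR2, FGFR3, PDGFRA and FGFBP1 (mean of at least 1 CPM, pseudocount 0.01 CPM). FGFR1-242 and FGFR3-203 were named after their values were seen. Alternatives were DESeq2 1.42.0, its size factors, library totals, no filter, effective-length offsets, the replicate block, only the groups compared, each library left out, TPM shares and protein-coding transcripts.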

Additional observations from a re-analysis of the deposited data

Results flagged for a closer look

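For 6 genes of the pathway and marker lists the response to BYL719 differed between KI and parental cells by the interaction test (edgeR quasi-likelihood test, adjusted p under 0.05), and none of them is a receptor of the set. They were 1 of 14 adaptors, 1 of 7 PDGF relatives, 1 of 10 basal markers, 1 of 16 co-receptors and carriers, 1 of 15 splicing regulators and 1 of 3 haematopoietic markers tested. The other lists had none. Of all genes tested 2.87% passed, and 8.71% without KI DMSO replicate 2. The log2 effect of BYL719 in KI cells minus that in parental cells was 0.88 for CBLB, 0.88 for PDGFRL, 0.67 for TP63, 0.63 for GPC6, 0.58 for MBNL2 and 0.33 for CD68. TP63, GPC6 and MBNL2 passed in all 18 alternatives, PDGFRL was lost in 3 (adjusted p up to 0.0623), CBLB in 5 (up to 0.0598) and CD68 in 15 (up to 0.133). All 6 were higher with BYL719 than with DMSO in every KI library. CBLB had 23.6, 26.5 and 26.9 CPM in KI cells with BYL719 and 12.1, 7.79 and 11.5 CPM in KI cells with DMSO, against 19.6, 19.2 and 21.0 CPM in parental cells with BYL719 and 14.3, 15.2 and 15.5 CPM in parental cells with DMSO. TP63, a factor of basal epithelial cells, had 57.0, 59.7 and 60.8 CPM in KI cells with BYL719 and 30.4, 23.1 and 29.6 CPM in KI cells with DMSO, against 105, 106 and 108 CPM in parental cells with BYL719 and 75.9, 78.3 and 82.2 CPM in parental cells with DMSO. KI DMSO replicate 2 was the lowest of its group for CBLB, TP63, GPC6, MBNL2 and CD68 and the highest for PDGFRL. Without that library, 3 adaptors had a positive and 2 a negative interaction that passed, beside 8.71% of all genes. The counts were then 3 and 1 for basal markers, 1 and 3 for splicing regulators and 1 and 1 for PDGF relatives. They were 1 and 0 for co-receptors and carriers and for haematopoietic markers. Among the splicing regulators, ESRP2 then passed at -0.19 (edgeR adjusted p = 0.0206).

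The relative use of the transcript FGFR1-242 also differed between the lines in its response, with a fitted log2 interaction of -16.2. The size of that value depends on the offset added to zeros and is no bound, since the transcript had counts in 3 of the 12 libraries.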

How the results depend on the processing

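The differences of FGFR1, FGFR2, FGFR3, FGFR4 and PDGFRA between KI and parental cells kept their direction and call in both treatments under all 19 alternatives. For the BYL719 response, fitting only the groups compared changed calls: in parental cells FGFR2 (0.21, adjusted p = 0.000486) and FGFR3 (0.14, adjusted p = 0.0012) passed, and in KI cells FGFR2 (0.34), FGFR3 (0.30) and FGFR4 (-0.23) did not. The counts of called genes were then 3484 in parental and 2610 in KI cells, against 302 and 5964 in the fit of all 12 libraries. By DESeq2, FGFR2 in parental cells passed at 0.21 (adjusted p = 0.0258), and 891 genes were called for BYL719 in parental cells and 1429 for the interaction, against 302 and 606 by edgeR. With effective-length offsets the uncalled values of FGFR1 for BYL719 in parental cells (0.033) and of FGFBP1 for KI over parental cells in DMSO (0.015) changed sign. The cause of these changes was not tested.

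The replicate numbers did not pair the libraries: 6 of 18 pairs correlated above 0.1 (range -0.14 to 0.39), and 3 of 12 libraries matched best with their own number. With the replicate number as a block, the calls among the 6 genes stayed at 5, 5, 4 and 1 in the 4 comparisons, with 7104, 4510, 5818 and 211 genes called in all. Transcripts called for relative use fell in number to 498 (KI against parental in DMSO), 302 (the same in BYL719), 480 (BYL719 in KI), 190 (BYL719 in parental) and 402 (interaction), and FGFR3 then had 0 for BYL719 in KI cells.

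With single libraries left out, log2 values ranged as follows for BYL719 over DMSO. In parental cells they were -0.024 to 0.0094 for FGFR1, 0.19 to 0.23 for FGFR2, 0.13 to 0.16 for FGFR3, -0.013 to 0.16 for PDGFRA and -0.62 to -0.51 for FGFBP1. In KI cells they were -0.14 to -0.067 for FGFR1 and -0.33 to -0.16 for FGFR4, and the PDGFRA interaction ran from -0.013 to 0.90. For KI over parental cells FGFBP1 ranged from -0.12 to 0.067 in DMSO and from -0.32 to -0.15 in BYL719. Called genes numbered 73 (without parental DMSO replicate 1) to 1973 (without KI DMSO replicate 2) for BYL719 in parental cells, 3562 to 7442 for KI over parental cells in BYL719 (the highest without KI DMSO replicate 2), and 239 (without parental BYL719 replicate 1) to 1874 (without KI DMSO replicate 2) for the interaction. Transcripts called for use between the lines in DMSO numbered 574 (without KI DMSO replicate 2) to 1110, with 0 to 1 in FGFR1. FGFR1 had 0 to 1 for BYL719 in KI cells and 1 to 2 for the interaction, and FGFR3 0 to 1 in each.

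For shares, left-out libraries gave -5.88 to -4.63 points for the FGFR1 first-loop exon with BYL719 and -1.49 to 0.79 between lines, -6.36 to -3.71 for FGFR2 IIIb between lines and -0.57 to 2.66 with BYL719, and -1.90 to 1.63 for FGFR3 IIIb between lines. Shares of TPM turned the FGFR2 IIIc difference with BYL719 to 0.66 points, and protein-coding transcripts alone turned FGFR3 IIIb between lines to -0.54 and the FGFR1 first-loop exon between lines to 0.073. Among other named genes, 2611 alternative values were the same in direction and call, 274 lost a call and 13 gained one. PDGFRA has the lowest depth, with 4 to 69 estimated counts per library.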
